A study of Rattus norvegicus with 192 samples.

Results

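The genes described here make, release, sense and break down acetylcholine. They are Chat, Slc18a3, Slc5a7, the receptor genes Chrm2, Chrm3 and Chrna7, and the cholinesterase genes Ache and Bche. Members were the probe sets whose platform annotation names 1 of these genes and no other. That gave 8 of the 31042 probe sets tested and 7 of the 13438 genes named, with 2 probe sets for Chrm3 and 1 for each of the others. No probe set of the annotation used here names Ache alone, and Ache is not analysed here. The rule uses names and no measured value.

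Phosphine (PH3) is a gas used against insects in stored grain. Male Sprague-Dawley rats spent 25 min in a whole-body chamber with PH3 at 660 ppm (16500 ppm × min) or with air (Air). RNA was taken 1, 3, 6 and 24 h later, under ketamine and xylazine in PH3 and Air rats alike, from lung, heart, kidney, blood, olfactory bulb and brain stem. The 48 groups of tissue, exposure and time held 4 rats each, apart from the 24 h Air group of blood with 3 and the 1 h Air group of olfactory bulb with 5. In all, 59 rat numbers gave 192 arrays. All 6 tissues came from 8 of these rats, and 26 gave 1 tissue. Most olfactory bulb arrays, all of those at 1 h among them, came from rats with no other tissue. Animal ages and an untreated group outside the chamber were not part of the labels used here.

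Cholinergic neurons make acetylcholine from choline and acetyl-CoA with choline acetyltransferase (Chat). The vesicular transporter Slc18a3 loads it into synaptic vesicles, and the high-affinity transporter Slc5a7 takes choline back into the nerve ending, the step that limits further synthesis. Muscarinic receptors signal through G proteins: Chrm2 slows the heart through inhibitory G proteins, and Chrm3 drives smooth muscle contraction and gland secretion through phospholipase C. Chrna7 is a ligand-gated calcium-permeable channel subunit of neurons and some immune cells, and acetylcholinesterase (Ache) and butyrylcholinesterase (Bche) hydrolyse acetylcholine. Brain stem holds the cholinergic motor nuclei of the cranial nerves, among them those of the vagus, which reaches heart, lung and gut. The pesticides best known for poisoning this system, organophosphates, inhibit cholinesterase as enzymes; a transcript level does not read enzyme activity.

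Slc18a3 lies inside the Chat gene on the same strand, and the start sites of both genes lie 602 bases apart in the RefSeq annotation of GRCr8. The 250 bases before each start are shown because these transcripts rose and fell together between brain stem arrays, with the 250 bases before Slc5a7, a gene on another chromosome. Capitals mark the GC box GGGCGG, searched on both strands, so that CCGCCC is the same box on the other strand. All are written 5′ to 3′ on the minus strand: Chat from chr16:7723417-7723666, Slc18a3 from chr16:7722815-7723064 and Slc5a7 from chr9:7953510-7953759.
Chat: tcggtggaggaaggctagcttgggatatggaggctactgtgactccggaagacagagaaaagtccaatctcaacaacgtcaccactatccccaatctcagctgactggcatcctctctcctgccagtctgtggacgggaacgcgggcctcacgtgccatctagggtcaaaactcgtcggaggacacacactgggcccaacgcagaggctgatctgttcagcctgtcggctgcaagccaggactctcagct
Slc18a3: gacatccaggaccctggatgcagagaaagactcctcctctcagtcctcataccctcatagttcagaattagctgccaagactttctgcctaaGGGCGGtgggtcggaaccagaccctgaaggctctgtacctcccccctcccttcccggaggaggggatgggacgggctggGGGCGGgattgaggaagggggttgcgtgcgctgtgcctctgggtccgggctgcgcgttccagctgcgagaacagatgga
Slc5a7: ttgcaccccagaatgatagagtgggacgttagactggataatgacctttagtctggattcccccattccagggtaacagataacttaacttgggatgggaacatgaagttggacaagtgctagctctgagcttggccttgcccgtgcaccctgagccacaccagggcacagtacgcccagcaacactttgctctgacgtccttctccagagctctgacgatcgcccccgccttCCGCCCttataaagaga
The window of Chat held 0 GC boxes, that of Slc18a3 held 2 and that of Slc5a7 held 1, against 30.5% of all 33469 promoter windows of this length with at least 1. Their GC contents were 57.2%, 61.6% and 53.2%, and the median over all windows was 51.2%. The core of the cyclic-AMP element, TGACG on either strand, was present 1 time for Chat, 0 times for Slc18a3 and 2 times for Slc5a7, and in 18.2% of all windows. The left and right parts of the neuronal repressor element, CAGCACC and GGACAGC, searched on both strands, were in none of these 3 windows and in 5.43% and 5.3% of all windows. These are letter matches and no measure of binding.

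All values are log2 intensities after RMA, a normalization that sets arrays to a common distribution, so a difference of 1 is a doubling of the intensity. Arrays read brightness and not copies, and in these bulk samples fewer cells of a type and less RNA per cell cannot be told apart. The 11 tissue marker genes shown, among them Umod for kidney, Sftpc for lung, Myh6 for heart and Alas2 for blood, were brightest in their own tissue. They were picked after the values were seen, so they are no test of the tissue labels. Doc2g, the only one for olfactory bulb, was the closest call at 9.45 there and 9.12 in heart. Mbp read 13.93 in brain stem and 13.03 in olfactory bulb. Blood arrays had another distribution from the rest. Their 75th percentile lay between 6.33 and 6.66, against 7.23 to 7.59 elsewhere, and the 23 control probe sets that match no transcript had a median of 3.46 in blood and 2.66 to 2.90 in the other tissues. Blood levels are therefore to be read with the percentile among the probe sets of that tissue. In Air blood it was 23.9 for Chat, 44.7 for Slc18a3, 5.97 for Slc5a7 and 51.3 for Chrm2. It was 10.5 and 36.0 for the 2 Chrm3 probe sets, 79.4 for Chrna7 and 20.6 for Bche. A 3′ index, the mean 3′ minus 5′ difference of the Gapdh and beta-actin control probe sets, rises where RNA is broken or copied short, and ran from 0.17 to 0.92 in heart and 0.07 to 0.52 in lung. By correlation with their own group, 27 of the 192 arrays stood more than 3 median deviations below the others of their tissue. Among them were heart PH3 Rat357 (1 h) and Rat368 (3 h) and heart Air Rat370 (3 h), and results that rest on these are given without them. Kidney PH3 Rat363 (3 h), the only array of that number, goes against its label: over 200 probe sets chosen because they varied with the rat in other animals, it correlated at 0.93 with the other tissues of PH3 Rat368, which has no kidney array, and at 0.104 with the next rat. Both numbers belong to PH3 at 3 h, so its group is the same under either.

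Synthesis, vesicle loading and choline uptake were marked by brain stem. Chat in the 16 Air arrays of brain stem had a lowest value of 5.79, a median of 6.60 and a highest of 7.07, with a mean of 6.54 ± 0.351 (SD, n = 16). It was 2.51 log2 units brighter there than in blood, the next tissue, with an adjusted p of 1.3e-37 in limma's fit of all Air arrays. Blood, at a mean of 4.02 and the 23.9th percentile, was in turn above heart at 3.19. Heart, kidney, lung and olfactory bulb followed between 3.19 and 2.88, and no neighbours in that order were called apart at an adjusted p under 0.05. After each array's median was subtracted, lung was called below kidney (-0.27, adjusted p 0.0149). Chat was brighter than all 23 control probe sets that match no transcript in brain stem, than 13 of them in blood and than 14 to 16 in the other tissues, so these differences are of intensities and the level outside brain stem cannot be told from background. Throughout, each Air pair was averaged over the 4 times and adjusted over all probe sets. Of the 120 member pairs, 95 were called, against 77.2% of all probe sets over the 15 pairs of tissues (50.1% to 92.5% in a pair), so that a difference between tissues was common for any gene.

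Slc18a3 had the same highest tissue. Its brain stem Air arrays ran from 5.79 through a median of 6.79 to 7.44, with a mean of 6.76 ± 0.509 (SD, n = 16). Blood came next at 4.88 ± 0.568 (SD, n = 15), 1.88 lower (adjusted p 6.0e-26), and then heart at 3.42 ± 0.346, where values ran from 3.09 to 4.28. Olfactory bulb at 3.07, kidney at 3.06 and lung at 2.96 were not called apart from their neighbours in that order (adjusted p 0.914 and 0.482).

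Slc5a7 was the member whose highest tissue stood furthest above its next. Brain stem Air arrays ran from 7.91 through a median of 8.75 to 9.25, at a mean of 8.62 ± 0.460 (SD, n = 16) and the 86.7th percentile. Olfactory bulb followed at 3.58 ± 0.306 (SD, n = 17), 5.06 log2 units lower, with an adjusted p of 1.2e-56. Blood at 3.20, heart at 2.93, lung at 2.69 and kidney at 2.63 came after, and kidney and lung were not called apart (adjusted p 0.638). By percentile, blood at 5.97 lay below heart at 6.80. The step from olfactory bulb to blood was called at 0.36 (adjusted p 0.0012) and was 0.11 (adjusted p 0.301) after each array's median was subtracted. Slc5a7 lay above 9 of the 23 control probe sets that match no transcript in kidney, 11 in blood, 11 in lung and 12 in heart. Its level in these tissues cannot be told from background, and their order is one of intensities.

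**Figure D1:**
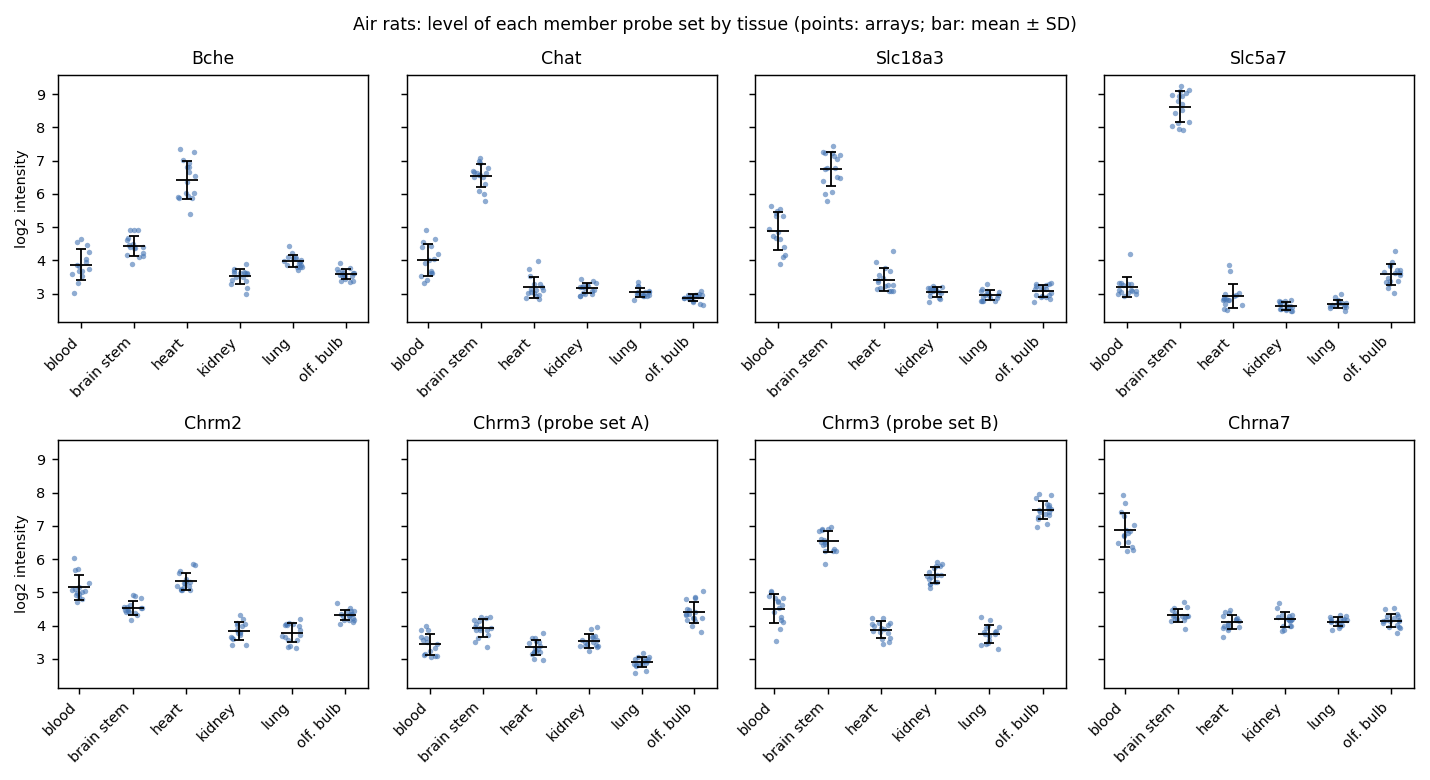
Level of each member probe set (log2 intensity, vertical axis) in the Air arrays of the 6 tissues, with 1 point per array and the mean ± SD; the Chrm3 probe sets are lettered A and B in order of their identifiers. Chat, Slc18a3 and Slc5a7 peak in brain stem at means of 6.54, 6.76 and 8.62, Bche in heart at 6.43 and Chrna7 in blood at 6.88.

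Among receptors, Chrm2 was highest in heart and blood. Heart Air arrays ran from 5.08 through a median of 5.29 to 5.85, with a mean of 5.34 ± 0.259 (SD, n = 16). Blood had 5.16 ± 0.376 (SD, n = 15), and heart was not called above it (0.17, adjusted p 0.0973; 0.21, adjusted p 0.0391 after median subtraction). Of the 23 control probe sets that match no transcript, 15 lay below Chrm2 in blood and 22 in heart. The blood level of Chrm2 thus did not stand clear of them. Brain stem at 4.54 and olfactory bulb at 4.32 were next (0.22, adjusted p 0.0519; adjusted p 0.0365 after median subtraction). Kidney at 3.84 and lung at 3.79 were lowest and were not called apart (adjusted p 0.676).

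Chrm3 was read by 2 probe sets, A and B, that gave the same order of the first 3 tissues. Probe set B had 7.48 ± 0.279 (SD, n = 17) in olfactory bulb, with values from 6.97 through 7.48 to 7.96. Brain stem followed at 6.54 ± 0.312, 0.94 lower (adjusted p 2.4e-13), then kidney at 5.53 ± 0.236, 1.01 lower than brain stem (adjusted p 8.0e-15), and blood at 4.51. Heart at 3.89 and lung at 3.76 were lowest and were not called apart (adjusted p 0.266; called after median subtraction, adjusted p 4.1e-04, lung lower by 0.38). Probe set A had 4.40 ± 0.328 in olfactory bulb, 3.92 in brain stem, 3.54 in kidney, 3.44 in blood, 3.35 in heart and 2.90 in lung, with kidney, blood and heart not separable between neighbours (adjusted p 0.315 for both steps). On probe set A, blood lay below heart by percentile, at 10.5 against 18.3.

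Chrna7 had its highest level in blood. The 15 Air arrays of blood ran from 6.23 through a median of 6.79 to 7.92, at a mean of 6.88 ± 0.512 (SD, n = 15) and the 79.4th percentile. It was 2.59 log2 units above brain stem (adjusted p 8.9e-43), where the mean was 4.31 ± 0.197. Kidney at 4.19, olfactory bulb at 4.16, lung at 4.12 and heart at 4.11 lay between the 37.3rd and 39.1st percentiles, and no neighbours among these or with brain stem were called apart. After median subtraction 2 of those neighbours were: olfactory bulb lay 0.21 below kidney (adjusted p 0.0202) and lung 0.25 below heart (adjusted p 0.0088), a pair whose order turned. In blood, 19 of the 23 control probe sets that match no transcript lay below Chrna7, and the brightest of them reached 8.26. Whether this probe set reads a Chrna7 transcript in blood was not tested.

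Bche, the only cholinesterase gene analysed here, was highest in heart. Heart Air arrays ran from 5.39 through a median of 6.46 to 7.36, with a mean of 6.43 ± 0.576 (SD, n = 16). Brain stem followed at 4.44 ± 0.306, 1.99 log2 units (3.97-fold) lower, with an adjusted p of 4.2e-28. Lung at 3.98, blood at 3.87, olfactory bulb at 3.59 and kidney at 3.52 were lower again, and lung and blood (adjusted p 0.345) and bulb and kidney (adjusted p 0.576) were not called apart. Median subtraction turned the order of both pairs, and of kidney with olfactory bulb for Slc18a3 and with lung for Slc5a7, and called none of them. By percentile, blood was the lowest tissue for Bche, at 20.6 against 25.6 in kidney and 28.5 in olfactory bulb. No member was called between the 4 Air times in any tissue (0 of 48 F tests at an adjusted p under 0.05, 0 at an unadjusted p under 0.05, smallest adjusted p 0.239), against 3.65% of all probe sets.

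After PH3, no member passed the test in any tissue at any time. Limma compared PH3 with Air of the same time for each of the 8 probe sets in 24 contrasts, and 0 of 192 effects had an adjusted p under 0.05, against 0.752% of all probe sets over the same contrasts. An unadjusted p under 0.05 was found for 7 effects (3.65%, against 7.7% of all probe sets), and in 7 the groups did not overlap (3.65%, against 4.43%). Both shares lay below those of all probe sets. Of the effects, 95 were positive and 97 negative, and their median size was 0.12 log2 units.

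The widths of the intervals limit what an absent call can show. The 95% interval lay within 1 log2 unit of 0, a doubling or its reverse, for 178 of the 192 effects, and the 14 that reached further were 10 in blood and the 4 of Bche in heart. In brain stem, kidney, lung and olfactory bulb, every one of the 32 intervals per tissue lay within that range, between -0.84 and 0.88. In simulated data with the spread of these arrays, this test recovered 57.6% of changes of 0.5 log2 units and 89.6% of changes of 1 in kidney at 3 h, and 62.1% and 97% in brain stem at 3 h. The changes were put on probe sets drawn at random from all those tested, with independent normal noise. These shares are therefore no measure of how often a change in a member would be called. Blood and heart, which held all the intervals that reached further, were not simulated. No difference of the effect between times was called (0 of 48 tests, 3 at an unadjusted p under 0.05), against 0.917% of all probe sets over the 6 tissues and 4.82% in lung, the highest. Nor was a difference between tissues called (0 of 32 tests, 1 at an unadjusted p under 0.05), against 0.85% of all probe sets over the 4 times and 3.09% at 1 h, the highest.

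**Figure D2:**
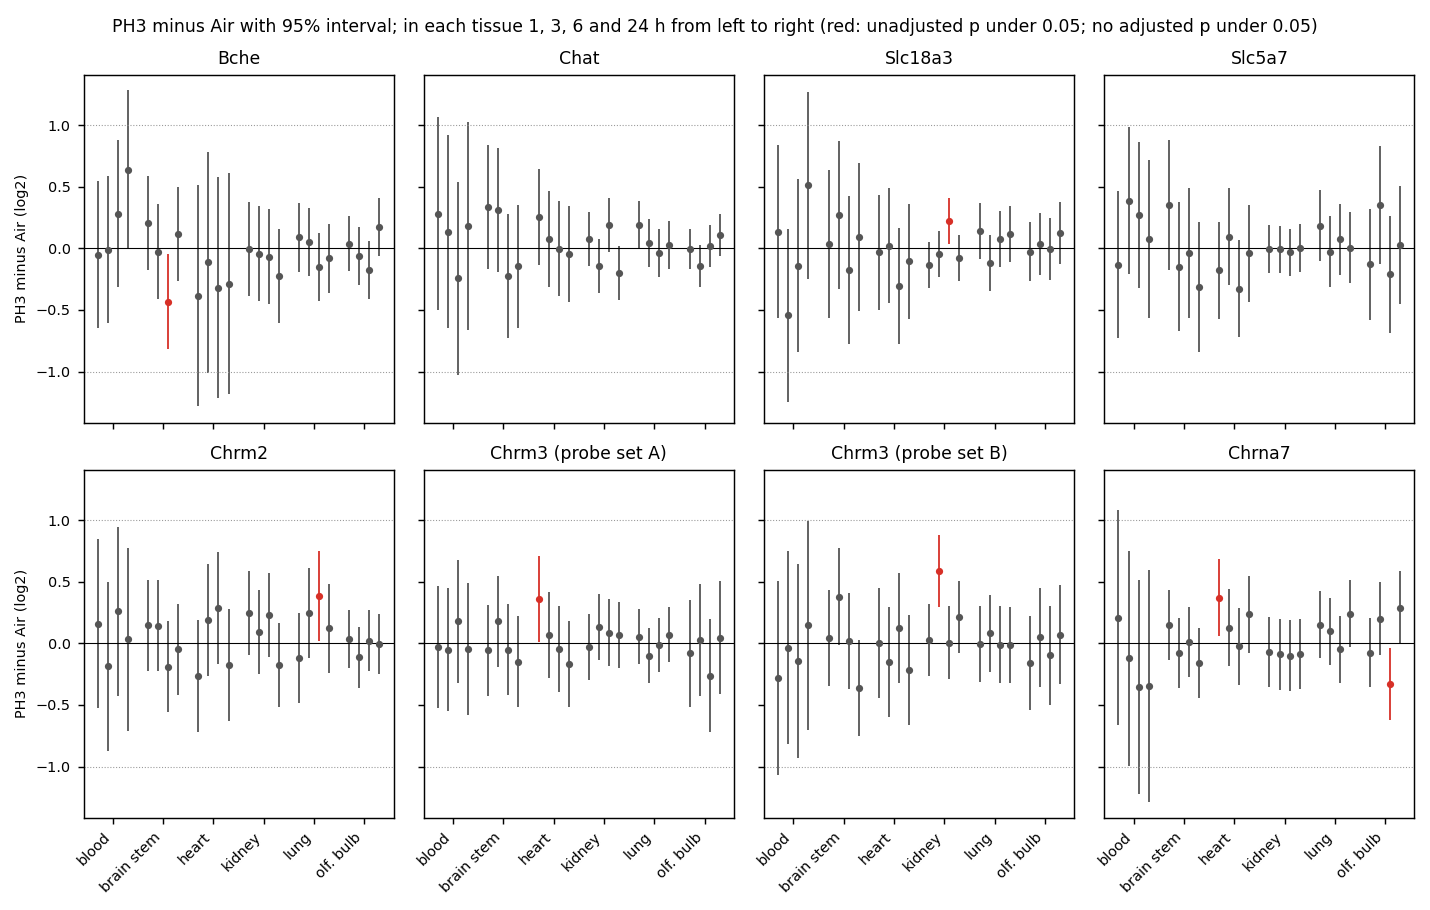
PH3 minus Air (log2, vertical axis) with its 95% interval for each member probe set in 6 tissues, at 1, 3, 6 and 24 h from left to right within a tissue. Red marks the 7 effects with an unadjusted p under 0.05, none of which passed after adjustment, and dotted lines mark 1 log2 unit in each direction.

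In brain stem, where the neuronal members were brightest, the exposed and control rats overlapped at every time for all 3. Chat at 1 h read 5.79, 6.52, 6.58 and 6.93 in Air and 6.44, 6.57, 6.88 and 7.27 in PH3 rats. The difference was 0.34 ± 0.245 (SE, n = 4 and 4; 95% interval -0.17 to 0.84; limma adjusted p 0.930). The groups overlapped, with the lowest value in Air and the highest in PH3. At 3, 6 and 24 h the differences were 0.31, -0.22 and -0.15, with the last between Air rats at 6.63 to 6.68 and PH3 rats at 5.99 to 7.09.

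Slc18a3 in brain stem at 1 h read 6.39, 7.05, 7.18 and 7.24 in Air and 6.50, 6.82, 7.16 and 7.53 in PH3 rats, a difference of 0.03 ± 0.293 (SE; adjusted p 0.996). At 3, 6 and 24 h it was 0.27, -0.18 and 0.09. The PH3 and Air values of Slc18a3 were interleaved at all 4 times.

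Slc5a7 in brain stem at 1 h read 7.94, 8.05, 8.17 and 9.02 in Air and 8.10, 8.52, 8.83 and 9.14 in PH3 rats (0.35 ± 0.256 SE, adjusted p 0.930). At 24 h it read 8.70, 8.95, 8.97 and 9.08 in Air and 8.40, 8.58, 8.58 and 8.89 in PH3 rats, a difference of -0.31 ± 0.256 (adjusted p 0.789). Most PH3 rats sat below the Air rats at 24 h, and the ranges overlapped. Bche, which stands apart from the neuronal genes in brain stem, read 4.38, 4.61, 4.90 and 4.91 in Air and 3.89, 4.27, 4.36 and 4.55 in PH3 rats at 6 h. Its difference was -0.43 ± 0.187 (SE; unadjusted p 0.0289, adjusted p 1.00) and the groups overlapped, in a contrast where 2.91% of all probe sets had an unadjusted p under 0.05.

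Between rats of the same group, Chat and Slc18a3 in brain stem followed each other. The deviations from group means correlated at a Pearson r of 0.813 over 32 arrays, and 0.779 without the 2 arrays farthest from the median of Slc18a3. Both share the array, the RNA and the dissection of 1 rat, and the probe sets lie in overlapping genes on 1 strand, so these values do not separate shared readout from shared level. Among all named genes in brain stem, Chat was most like Slc18a3 (0.813), Arf2 (0.711), a vesicle coat GTPase, and Nefm (0.694), a neurofilament subunit. Slc18a3 was most like Susd2 (0.825), Chat (0.813) and the histone methyltransferase gene Ehmt2 (0.802).

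Slc5a7 followed them less closely, at an r of 0.21 with Chat and 0.36 with Slc18a3. Its closest genes were Asnsd1 (0.705), Tle6 (0.695) and Slc13a1 (0.686), a list with no overlap with those of Chat or Slc18a3. The mean level of a list of 10 measured marker genes of motor neurons, such as Isl1, Isl2 and Prph, was also compared. It correlated with Chat at 0.653, Slc18a3 at 0.738 and Slc5a7 at 0.268. Without the 2 arrays farthest on that list, which were brain stem Air Rat340 (24 h) and Rat370 (3 h), the values were 0.708, 0.70 and 0.218. How far the share of motor neurons in each piece of brain stem enters the spread of these genes was not tested.

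**Figure D3:**
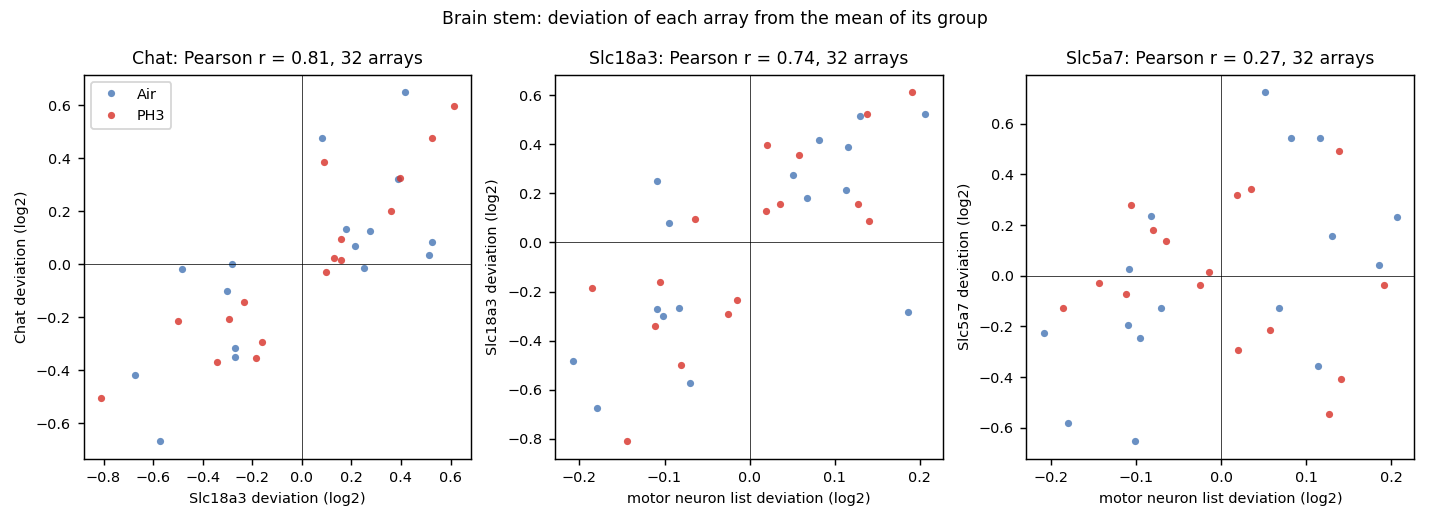
Deviation of each of the 32 brain stem arrays from the mean of its group (log2): Chat against Slc18a3, and Slc18a3 and Slc5a7 against the mean of the motor neuron marker list. Air and PH3 arrays lie along the same line in the first 2 panels (r of 0.81 and 0.74), while Slc5a7 is scattered (r of 0.27).

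The same transporters were dim in heart and lung, and a few arrays there stood higher. Of the 23 control probe sets that match no transcript, 12 lay below the Air mean of Slc5a7 in heart and 11 in lung. For Slc18a3 it was 15 in each. Slc5a7 in heart had 3.87 in Air Rat382 (6 h), 3.67 in Air Rat353 (1 h) and 3.45 in PH3 Rat359 (3 h), and no other heart array passed 3.03. Those arrays came from both exposures. Over 32 heart arrays Slc5a7 correlated with a list of 8 general neuron genes such as Snap25 at 0.786 and Slc18a3 did so at 0.678, or 0.651 and 0.62 without Rat353 and Rat359, the arrays farthest on the list. Without Rat382 as well, the values were 0.38 and 0.464. In lung the values were 0.721 and 0.668, or 0.572 and 0.498 without 2 arrays. Whether these arrays hold more nerve tissue was not tested.

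Outside brain stem, 3 contrasts of the presynaptic genes had groups that did not overlap. Slc18a3 in blood at 3 h read 4.66, 4.67, 4.74 and 5.55 in Air and 4.07, 4.41, 4.41 and 4.55 in PH3 rats (-0.54 ± 0.343 SE, adjusted p 1.00), where 2.55% of all probe sets did not overlap. Chat in kidney at 24 h read 3.19 to 3.38 in Air and 2.87 to 3.17 in PH3 rats (-0.20, adjusted p 0.805; background 5.01%). Chat in lung at 1 h read 2.92 to 3.01 in Air and 3.02 to 3.32 in PH3 rats (0.19, adjusted p 0.365; background 9.46%). Slc18a3 in kidney at 6 h read 2.75, 2.84, 2.86 and 3.21 in Air and 3.02, 3.04, 3.21 and 3.29 in PH3 rats (0.22 ± 0.091 SE, unadjusted p 0.0200, adjusted p 0.650; 6.71% of all probe sets had an unadjusted p under 0.05). None of these levels stood clear of the 23 control probe sets that match no transcript: 15 of them lay below Slc18a3 in blood, 15 below Chat and 15 below Slc18a3 in kidney, and 16 below Chat in lung.

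Of the receptors, Chrm3 in kidney at 3 h came nearest to a call. Probe set B read 5.14, 5.26, 5.30 and 5.53 in Air (mean 5.31 ± 0.161 SD, n = 4) and 5.61, 5.84, 5.98 and 6.15 in PH3 rats (mean 5.89 ± 0.227 SD, n = 4). Every PH3 rat lay above every Air rat, as 4.97% of all probe sets did in one direction or the other in this contrast. The difference was 0.59 ± 0.143 (SE; 95% interval 0.29 to 0.88; unadjusted p 3.3e-04) and the adjusted p was 0.0772, where 0.303% of all probe sets were called.

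Both 3 h groups lay at the ends of the kidney range. Kidney Air means were 5.71, 5.59 and 5.49 at 1, 6 and 24 h and PH3 means 5.74, 5.60 and 5.70, so the Air group at 3 h was the lowest of the 8 and the PH3 group the highest. Against the Air rats of all 4 times the difference was 0.37 (adjusted p 0.124). Probe set A read 3.39, 3.41, 3.56 and 3.97 in Air and 3.52, 3.65, 3.80 and 3.89 in PH3 rats at 3 h, a difference of 0.13 ± 0.131 (adjusted p 0.795) with overlapping groups. It was the dimmer of the 2 in Air kidney, at 3.54 against 5.53. Of the 23 control probe sets that match no transcript, 18 lay below A and 22 below B. The test of probe set B between times gave an unadjusted p of 0.0278 (adjusted p 0.449).

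The Chrm3 call changed sides of the threshold with the fit. It was called where only the brighter 50% of probe sets were tested (adjusted p 0.0468), with the 3′ index as a covariate (0.64, adjusted p 0.0193) and without PH3 Rat399 (0.68, adjusted p 0.0421). Over 17 alternatives the effect stayed positive, from 0.37 to 0.68, with adjusted p from 0.0193 to 1.00. Without PH3 Rat363, the array nearest to another rat, it was 0.50 (adjusted p 0.281). With the rat as a random block over all tissues, the value was 0.58 and the adjusted p 1.00. Of 9 smooth muscle markers in the same contrast, 8 were higher after PH3 with a median of 0.25 and 0 were called. The skeletal muscle actin gene Acta1, at a dim Air mean of 3.02, was the only skeletal muscle marker called. The part of these markers in the Chrm3 difference was not tested.

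**Figure D4:**
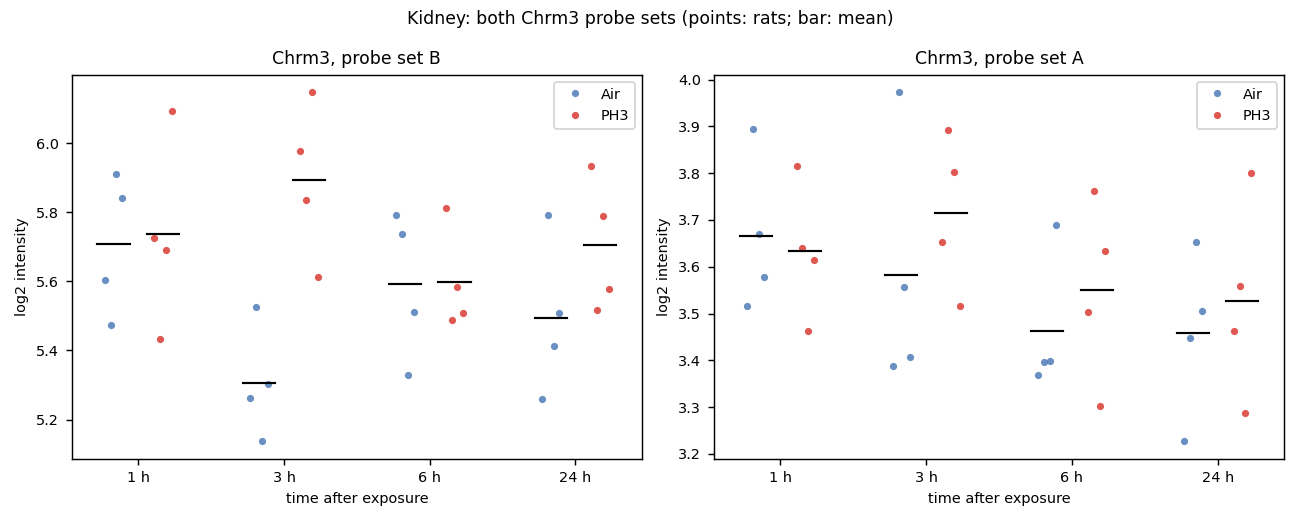
Both Chrm3 probe sets in kidney (log2 intensity, vertical axis; each panel has its own scale), 1 point per rat with the group mean, by time after exposure. At 3 h the 4 PH3 rats read 5.61 to 6.15 and the 4 Air rats 5.14 to 5.53 on probe set B, while on probe set A the groups overlap.

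In the other tissues Chrm3 and Chrm2 gave small differences. In heart at 1 h Chrm3 probe set A read 2.97, 3.38, 3.50 and 3.54 in Air and 3.20, 3.72, 3.81 and 4.09 in PH3 rats (0.36 ± 0.171 SE, unadjusted p 0.0459, adjusted p 0.412), where 11.9% of all probe sets had an unadjusted p under 0.05. Probe set B read 3.45, 3.51, 3.78 and 4.07 in Air and 3.41, 3.54, 3.82 and 4.07 in PH3 rats, a difference of 0.00 (95% interval -0.44 to 0.45), so the probe sets gave unlike values there. Both were dim in Air heart, at 3.35 for A and 3.89 for B. Of the 23 control probe sets that match no transcript, 15 lay below A and 18 below B. In olfactory bulb, where Chrm3 was brightest, the differences of probe set B were -0.16, 0.05, -0.10 and 0.07 at the 4 times, all with overlapping groups.

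Over the 33 olfactory bulb arrays, both Chrm3 probe sets deviated together, at an r of 0.826, and in brain stem at 0.444. In olfactory bulb probe set B also followed the general neuron list at 0.677 (0.584 without 2 arrays). Its closest named genes were Otub2 (0.813), Slc7a14 (0.811) and Pld3 (0.786).

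Chrm2 in heart, the receptor through which the vagus slows the beat, read 5.19, 5.19, 5.29 and 5.85 in Air and 4.73, 5.12, 5.19 and 5.41 in PH3 rats at 1 h. The difference was -0.27 ± 0.221 (SE; 95% interval -0.72 to 0.19; adjusted p 0.678) and the ranges overlapped. At 3, 6 and 24 h it was 0.19, 0.29 and -0.18. Its closest genes in heart were Vcpip1 (0.704), Mettl6 (0.704) and Prl8a7 (0.683). In lung at 6 h Chrm2 read 3.32, 3.66, 3.68 and 3.72 in Air and 3.74, 3.87, 3.96 and 4.34 in PH3 rats (0.39 ± 0.177 SE, unadjusted p 0.0385, against 4.95% of all probe sets under 0.05; adjusted p 0.983). Those groups did not overlap, as for 2.89% of all probe sets in that contrast.

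Chrna7 in blood varied widely within groups. At 1 h the PH3 rats read 5.60, 6.24, 7.27 and 8.09 and the Air rats 6.23, 6.51, 6.73 and 6.89 (0.21 ± 0.425 SE, adjusted p 0.948). The PH3 rats spanned both sides of the Air range. At 3, 6 and 24 h the differences were -0.12, -0.36 and -0.35, and the widest 95% interval ran from -1.29 to 0.59. In blood its closest genes were Arhgap42 (0.715), Tmem239 (0.714) and Cpa4 (0.677).

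In solid tissues Chrna7 had 3 contrasts that stood out before adjustment or by their ranges. In olfactory bulb at 6 h the Air rats read 4.17, 4.24, 4.28 and 4.29 and the PH3 rats 3.63, 3.87, 4.06 and 4.10, all below Air (-0.33 ± 0.144 SE, unadjusted p 0.0291, adjusted p 0.483). In that contrast 9.84% of all probe sets had an unadjusted p under 0.05 and 3.36% did not overlap. At 24 h the sign was the other way, 0.29, and the test between times gave an unadjusted p of 0.0201 (adjusted p 0.702). In heart at 1 h the Air rats read 3.88, 3.92, 3.94 and 4.14 and the PH3 rats 4.11, 4.18, 4.37 and 4.69, overlapping by 1 rat on each side (0.37 ± 0.153 SE, unadjusted p 0.0229, adjusted p 0.323). The 3′ index in that contrast was 0.248 ± 0.0214 in Air and 0.40 ± 0.313 in PH3 rats (SD, n = 4 each). In lung at 24 h the Air rats read 4.01 to 4.13 and the PH3 rats 4.19 to 4.48 (0.24, adjusted p 0.844), where 3.81% of all probe sets did not overlap.

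Bche in heart had the lowest values of its heart range after PH3, from 2 arrays. At 1 h it read 5.92, 5.94, 6.55 and 6.67 in Air and 4.40, 6.25, 6.31 and 6.57 in PH3 rats (-0.39 ± 0.438 SE, adjusted p 0.778). At 3 h it read 5.39, 5.89, 6.04 and 6.37 in Air and 4.53, 6.09, 6.12 and 6.49 in PH3 rats (-0.11 ± 0.438 SE, adjusted p 1.00). In each PH3 group, 1 rat lay far below the other 3, which sat among the Air rats at 1 h and among and above them at 3 h.

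Those arrays, PH3 Rat357 (1 h) and PH3 Rat368 (3 h), had 3′ indices of 0.868 and 0.923, and Air Rat370, the lowest Air array at 5.39, had 0.842. Over 32 heart arrays Bche correlated with the 3′ index at -0.602, and at -0.32 without Rat357 and Rat368. The difference was 0.11 at 1 h without Rat357 and 0.31 at 3 h without Rat368, so its sign turned. At 6 and 24 h it was -0.32 and -0.29 (adjusted p 1.00 and 0.948), and 0.029 and 0.031 against the Air rats of all 4 times. The closest genes to Bche in heart were Acot2 (0.911), a mitochondrial acyl-CoA thioesterase, Sptbn1 (0.901), a spectrin, and Mapk8ip1 (0.863).

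**Figure D5:**
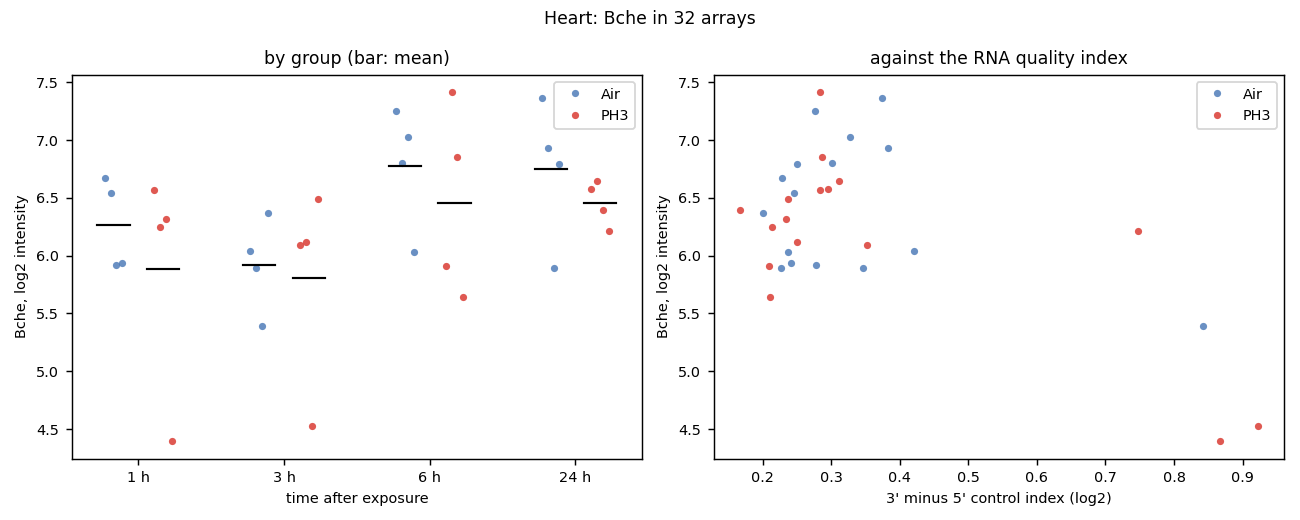
Bche in the 32 heart arrays (log2 intensity, vertical axis), by group with the mean, and against the 3′ index of each array. The 3 arrays with Bche at 4.40, 4.53 and 5.39 have indices of 0.868, 0.923 and 0.842; all but 1 of the other arrays lie below an index of 0.5.

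Bche in blood gave the largest difference of any member, at 24 h. At that time it read 3.02, 3.75 and 4.64 in the 3 Air rats and 4.10, 4.26, 4.43 and 4.96 in PH3 rats, a difference of 0.64 ± 0.315 (SE; 95% interval -0.01 to 1.28; adjusted p 0.768). The Air rats spread across and beyond the lower PH3 rats. The value depended on single Air arrays: it was 0.24 (adjusted p 0.976) without Air Rat340 and 1.06 (adjusted p 0.320) without Air Rat328, in fits with 2 Air rats. At 1, 3 and 6 h it was -0.05, -0.01 and 0.28. The mean Air level of Bche in blood was 3.87, above 13 of the 23 control probe sets that match no transcript. That level cannot be told from background.

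The other genes of the pathway were read from 7 lists, in which 75 of 90 genes were measured. All 15 nicotinic subunits other than Chrna7 were measured and 0 were called in any contrast, nor were the 3 other muscarinic receptors or the 5 measured partners and relatives of cholinesterase such as Colq and Nlgn1. In heart at 1 h, 12 of the 15 nicotinic subunits had a higher mean in PH3 rats, against 49.3% of all probe sets, with a median of 0.20 against 0.00, and 3 had an unadjusted p under 0.05, against 11.9%. Without PH3 Rat357, whose 3′ index was 0.868, 12 had a higher mean with a median of 0.20 and 4 had an unadjusted p under 0.05, against 8.16% of all probe sets. Such counts of higher means are not given for the other lists and contrasts. How often a count of this size arises among them was therefore not tested. The 15 subunits were read on the same arrays, so their directions are not independent of each other. Over all lists, calls fell in 3 contrasts and on 9 genes.

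In heart at 1 h, 1 of 16 choline supply genes fell, where 0.915% of all probe sets were called: Pld1, a phospholipase D that frees choline from phosphatidylcholine. It read 6.13, 6.18, 6.26 and 6.39 in Air and 5.30, 5.35, 5.47 and 5.87 in PH3 rats, with no overlap (-0.74 ± 0.175 SE, limma adjusted p 0.0329). The other 4 Pld1 probe sets gave -0.11 to -0.26 and were not called, and the call was lost when any single 1 h heart array was left out (adjusted p 0.0657 to 0.144).

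In kidney at 1 h, 2 pathway genes rose, where 2.35% of all probe sets were called. Chka, the choline kinase that starts phosphatidylcholine synthesis and was 1 of 16 choline supply genes, read 6.34, 6.56, 6.65 and 6.78 in Air and 6.94, 7.24, 7.27 and 7.28 in PH3 rats (0.60 ± 0.138 SE, adjusted p 0.0140). Lynx1, an anchored protein that restrains nicotinic receptors and was 1 of 10 modulators, read 5.89, 5.92, 5.93 and 6.05 in Air and 6.42, 6.45, 6.49 and 6.54 in PH3 rats (0.53 ± 0.0832 SE, adjusted p 3.2e-04). Its other probe set gave -0.06 (adjusted p 0.939). Neither gene's groups overlapped, but both calls were lost with the rat as a random block over all tissues (adjusted p 0.165 and 0.817). That fit also takes 1 spread per probe set from all 6 tissues, and which of these lost the calls was not tested. The fit without the arrays that stood apart left PH3 Rat350 alone in its group, and its values are not given. Of 17 alternatives, that fit included, Chka stayed called in 11 and Lynx1 in 15. Of 6 red cell markers, 2 were called higher in kidney at 1 h. The skeletal muscle actin gene Acta1 was too (0.67, adjusted p 0.0387), the only skeletal muscle marker called. Its Air mean of 3.02 is near that of Chat in kidney, 3.16, which cannot be told from background. The part of these markers was not tested.

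In lung at 3 h, 4 of 20 muscarinic signalling genes rose, where 9.89% of all probe sets were called. The inhibitory G protein subunit Gnai1 read 7.23, 7.46, 7.66 and 7.68 in Air and 7.99, 8.09, 8.14 and 8.21 in PH3 rats (0.60 ± 0.159 SE, adjusted p 0.0164). Rgs2, which shortens signals through Gq, rose by 0.70 (adjusted p 0.0161) on the named probe set and gave 0.11 on the other (adjusted p 0.796). The receptor kinases Grk2 and Grk5, which switch off occupied receptors, rose by 0.27 and 0.41 (adjusted p 0.0264 and 0.0290). Among 6 other esterases Aadac fell by 0.22 (adjusted p 0.0333), from a mean of 3.24 in Air to 3.02 in PH3 rats. These means are near that of Chat in Air lung, 3.04, which cannot be told from background. Among 10 assembly genes and modulators Agrn, the organizer of receptor clusters at the neuromuscular junction, read 10.20, 10.32, 10.42 and 10.48 in Air and 9.82, 9.85, 9.90 and 9.97 in PH3 rats (-0.47 ± 0.0966 SE, adjusted p 0.0035).

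The members themselves were not called in lung at 3 h: Chrm2 gave 0.25 (adjusted p 0.427) and Chrm3 on probe set B 0.08. The 3′ index there was 0.445 ± 0.0776 in Air and 0.178 ± 0.0651 in PH3 rats, 3 of 9 smooth muscle markers were called higher with a median of 0.40, and 2 of 8 T cell markers with a median of 0.43. With the 3′ index as a covariate all 6 lung calls were lost (adjusted p 0.316 to 0.676). The index differed between PH3 and Air there, so that fit cannot tell the index from the exposure. All 6 were also lost with the rat block (0.155 to 1.00), which takes the spread of all tissues together. Against the Air rats of all times each but Grk2 was lost (0.106 to 0.688). Of 16 alternatives, Agrn stayed called in 12, Gnai1 in 10, Rgs2 in 9, Grk2 in 8 and Grk5 in 7. Aadac stayed called in 6 of 15.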

How the data were processed

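RNA of 6 tissues was amplified with a 3′ in vitro transcription kit and hybridised to rat expression arrays, per the labels' protocols. Blood was drawn by heart stick and processed with another kit. The deposited values are RMA log2 intensities from Partek, per the submitters' processing notes. Which arrays were normalized together, and with which version, is not given in the sources used here.

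Of 31139 probe sets, 97 controls were left out and 31042 tested without a filter. The platform annotation names 1 gene for 19063, several for 572 and none here for 11407. Limma 3.58.1 in R 4.3.3 fitted the 8 groups of a tissue together. Tests were two-sided, with Benjamini-Hochberg adjustment within each contrast across every probe set tested; a call has an adjusted p under 0.05. Tissues were compared at each time by an F test weighted by each effect's SE. A list gene is read by its brightest probe set in the tissue, and pathway genes are named where called. Likeness is the Pearson r of deviations from group means over the member's brightest tissue, and the 3 closest named genes are given. All 7 promoter windows of measured members matched RefSeq (GRCr8) by symbol.

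Within a tissue no rat number appears more than 1 time, so p-values measure the spread between rats. Rat numbers pair tissues of 1 animal, not PH3 with Air; the consensus correlation over a rat's tissues was 0.0168. The fit was tested on simulated data. Arrays have no read depth, and their number limits precision. Members and lists were chosen with earlier results of these data known, and the tissue markers were picked after the values were seen. Alternatives were another set of arrays in the fit, median subtraction, a brightness filter, a trended robust variance, the 3′ index as covariate, Air of all times as control, the rat as block, and arrays left out.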

Additional observations from a re-analysis of the deposited data

Results flagged for a closer look

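In groups of 4 or 5 rats, 20 sets of values (5.32% of those tested) had 1 rat whose gap to the nearest other was a large part of the group's range; chance flags about 1 in 20 groups. Values are log2 intensities. In heart, Bche read 4.40 in PH3 Rat357 at 1 h, with the nearest rat at 6.25, Chrm2 read 5.85 in Air Rat345 at 1 h, and Chrm3 probe set B read 3.59 in Air Rat388 at 6 h. In brain stem, PH3 Rat375 at 6 h was lowest of its group for Slc18a3, at 6.54, and for Chrm3 probe set A, at 3.48. In kidney, Bche read 3.16 in Air Rat377 at 6 h, Slc18a3 read 3.08 in PH3 Rat351 at 1 h, and Chrm3 probe set A read 3.69 in Air Rat394 at 6 h. In lung, Slc18a3 read 3.42 in PH3 Rat357 at 1 h, 2.88 in Air Rat353 at 1 h and 3.04 in Air Rat388 at 6 h, and Chrm2 read 3.32 in Air Rat394 at 6 h.

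In blood, Air Rat354 at 1 h was highest of its group for Chat, at 4.64, and for Slc5a7, at 4.20. Slc18a3 read 5.55 in Air Rat365 at 3 h, Chrm2 read 5.72 in Air Rat377 at 6 h, and Chrna7 read 6.38 in PH3 Rat325 at 24 h, the lowest of its group. In olfactory bulb, Chat read 3.00 in PH3 Rat482 at 1 h, Slc18a3 read 2.74 in Air Rat509 at 1 h, and Chrm3 probe set A read 4.80 in Air Rat382 at 6 h.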

How the results depend on the processing

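The count of called member probe sets was 0 in blood, brain stem, heart, lung and olfactory bulb under every alternative run. In kidney it was 1, Chrm3, with the brighter 50% of probe sets and with the 3′ index as covariate, and ran from 0 to 1 as single arrays were left out. With the replicate block, the rat as a random effect over all tissues, the member count was 0 in each tissue, and the Air pairs called stayed at 95 of 120; median subtraction gave 101. The difference of Bche in heart turned sign in 7 fits: 0.029 at 6 h and 0.031 at 24 h with Air of all 4 times, 0.11 at 1 h and 0.13 at 3 h without arrays that stood apart (chosen after the data were seen), 0.11 at 1 h without PH3 Rat357, and at 3 h 0.31 without PH3 Rat368 and 0.03 without Air Rat400. Leaving out single arrays, it ran from -0.61 to 0.11 at 1 h and from -0.34 to 0.31 at 3 h. These turns come from leaving out or adding arrays; beyond that, the cause was not tested. Groups of 3 to 5 rats and dim signals limit precision. A difference in Chat, Slc18a3 or Slc5a7 outside brain stem, or in Bche in blood, lies close to the level of control probe sets that match no transcript.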
